A study of Mus musculus with 1152 samples.

Results

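A group of 9 JAK/STAT feedback genes was followed here in single long-term hematopoietic stem cells (LT-HSCs): the suppressors of cytokine signaling Socs1, Socs2, Socs3, Socs5 and Socs7, their relative Cish, and the serine/threonine kinases Pim1, Pim2 and Pim3. They were chosen by name, through their Ensembl identifiers, and are 9 of the 41388 genes in the count tables. All 9 passed the filter on low counts. Values come from the 688 of 1152 wells in which at least 2500 genes had a count. The question was whether these genes, taken as a group of STAT feedback targets, mark cells that carry JAK2V617F, or cells of 18-month-old mice. Whether each of the 9 is a direct target of STAT factors in these cells was not tested.

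The study sorted LT-HSCs from whole bone marrow with ESLAM surface markers, 1 cell to a well, and sequenced full-length cDNA (Smart-seq2). Cells came from wild-type (WT) mice and from mice homozygous for JAK2V617F, the activating JAK2 mutation of myeloproliferative neoplasms, at 4, 12 and 18 months of age, which gave 6 groups of 192 wells. Each group was sequenced as 2 library pools of 96 wells, and the pool is the replicate here. The study's design gives 2 animals per group, but no label ties a pool to an animal, so the spread between pools may be technical. The mice received no treatment that the labels name. A count on Jak2 does not read the mutated codon and so does not check the genotype labels: Jak2 lay at 79.3 ± 45.1 CPM (counts per 1000000 gene counts) in WT and 80.02 ± 83.5 CPM in JAK2V617F pools (SD, n = 6 each).

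JAK kinases sit on cytokine receptors and, once a ligand binds, phosphorylate STAT factors, which enter the nucleus and switch on target genes. Several SOCS genes and Cish are among the fastest of these targets, and their proteins bind the receptor or the kinase and damp the signal, so their transcripts are widely used as a readout of STAT activity. Pim kinases are STAT targets of the other kind, which carry survival and growth signals.

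STAT dimers bind palindromes of the form TTCNNNGAA. The promoter windows of the members, taken from RefSeq (assembly GRCm38.p6), show where these letters stand. Windows of 300 bases, from 250 before to 50 after the start, were on file for Socs1, Socs3, Cish, Pim1 (with 2 starts), Pim2 and Pim3, and not for Socs2, Socs5 and Socs7. The motif is its own reverse complement, so a search of 1 strand covers both. It was found in 2726 of 32851 windows of all genes (8.30%), and 2 or more copies in 150 (0.457%). Socs3 held 1 copy and Cish 2, whereas the windows of Socs1, Pim1, Pim2 and Pim3 held none. The Socs3 stretch (chr11:117969367-117969616, minus strand) has its copy from base -154 to base -146, and the Cish stretch (chr9:107296654-107296683, plus strand) from base 1 to 9 and from base 12 to 20 of the transcript. Capitals mark the motif, read 5′ to 3′.
Socs3: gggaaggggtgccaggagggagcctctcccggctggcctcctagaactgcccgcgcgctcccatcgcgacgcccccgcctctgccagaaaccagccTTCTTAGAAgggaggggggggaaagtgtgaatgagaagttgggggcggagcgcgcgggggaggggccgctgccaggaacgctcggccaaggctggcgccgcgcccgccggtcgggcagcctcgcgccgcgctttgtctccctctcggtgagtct
Cish: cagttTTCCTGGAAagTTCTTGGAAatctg
A match in letters is a description and not a bound site, and a window without a match says nothing of binding elsewhere.

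The 3 sets of libraries stood apart. For the ages of 4 and 18 months, pool A of each group belongs to a set in which spike-in RNA took a median of 0.690 to 1.10% of counts, and pool B to a set at 7.18 to 7.74%. The 4 pools of 12 months lay at 45.6 to 58.7%, and in them 41.3 to 56.3% of all detections rested on 1 or 2 counts, against 15.7 to 24.6% in the other 8 pools. Age and library set cannot be told apart for 12 months, and these pools enter no contrast between ages. The median well held 173318 to 717980 gene counts by pool. Between 4 and 96 of the 96 wells of a pool passed, the fewest in pool A of the 4-month JAK2V617F group. That pool's 4 wells carry little weight, and the main results it enters are also given without it. Below, a matched pair is 2 pools of 1 library set that differ in genotype or in age. How many of all genes tested keep 1 direction in all 4 pairs was not counted, so such orders are descriptions. All 10 HSC markers on a list (among them Procr, Slamf1 and Mecom) had counts in every pool, and Cd48, which ESLAM cells lack, lay between 0 and 3.27 CPM. By edgeR no gene was called on lists of megakaryocyte, granulocyte and monocyte, B cell, T and NK cell or macrophage and stroma markers. But edgeR called 0 of 14930 genes in the genotype or the age contrast, so this cannot show that the markers did not differ. Only 2 of 6 T and NK cell, 2 of 7 macrophage and stroma and 3 of 6 B cell markers could be tested. Erythroid and B cell markers are given below, as are the directions of these lists with age.

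Detections at low counts followed shared index sequences in the 12-month pools (the bar plot of index sharing). Each well carries 1 of 96 pairs of index sequences. Within each of the 12-month pools, and for each member, wells were split by whether they share an index with the well of the highest count. Socs5 had at least 1 count in 68.4% of sharing wells (39 of 57) and in 24.1% of the others (53 of 220). Cish was detected in 43.1 against 10.05% and Socs7 in 16.7 against 3.06%. In the pools of 4 and 18 months the gaps were smaller but went the same way for 7 of 9 members, such as Pim2 at 39.5 against 28.5%, Pim3 at 32.1 against 21.9% and Socs3 at 30.4 against 20.3%, and not for Cish (23.8 against 26.9%) and Pim1. Low counts thus moved with the index sequences, and most in the 12-month wells. Shares of wells below are given at a minimum of 10 counts unless stated, a minimum chosen after seeing these data.

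**Figure D1:**
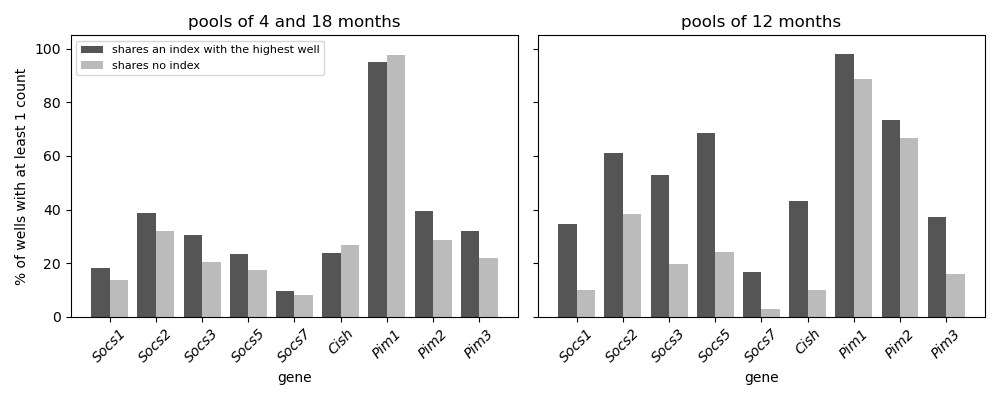
Bars give the percentage of wells with at least 1 count of each gene, for wells that share an index sequence with the well of the gene's highest count (dark) and wells that do not (light), on a linear axis from 0. In the 12-month pools (right) the dark bar is above the light bar for all 9 genes, as with Socs5 at 68.4 against 24.1%, while in the pools of 4 and 18 months (left) it is above for 7 of 9, with a gap of 23.5 against 17.5% for Socs5.

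Per length of exon, Pim1 was the highest of the 9 genes, and Socs7 and Socs1 were the lowest by their medians. Over the 8 pools of 4 and 18 months the median level was 96.5 CPM per kilobase for Pim1, 31.2 for Pim2, 20.6 for Socs3, 11.8 for Cish, 8.99 for Pim3, 7.29 for Socs5, 5.45 for Socs2, 2.31 for Socs7 and 2.26 for Socs1. Pim1 exceeded Pim2 in 7 of 8 pools and Socs2 exceeded Socs7 in 8 of 8. The other neighbours in that order changed places in at least 3 of the 8 pools and do not differ beyond their spread. By the mean over these pools Socs7, at 2.57 CPM per kilobase, was below Socs1, at 3.98. Pim1 was also the only member found in nearly every cell, with a count in 650 of 688 wells (94.5%). At the same minimum of 1 count, and in the 407 wells of 4 and 18 months, Socs2 was found in 34.9%, Pim2 in 30.5%, Cish in 27.3%, Pim3 in 25.1%, Socs3 in 22.6%, Socs5 in 19.9%, Socs1 in 15.97% and Socs7 in 10.3%. The 12-month wells, where single counts followed the indexes most, gave another order, with Pim2 in 68.7% and Socs5 in 34.2%.

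The feedback genes were thus read in few cells each, and single wells carried much of a pool's sum. For Socs7, a large SOCS member, 1 well held over 50% of the counts in 12 of 12 pools. The same was so in 6 of 12 pools for Socs1, Socs2, Socs5 and Cish, in 5 for Socs3, in 4 for Pim2, in 3 for Pim3 and in 1 for Pim1. That 1 pool was the 4-well pool, where 1 cell gave 76.9% of the Pim1 counts. Summed counts and shares of wells weight cells differently, and both are given.

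**Figure D2:**
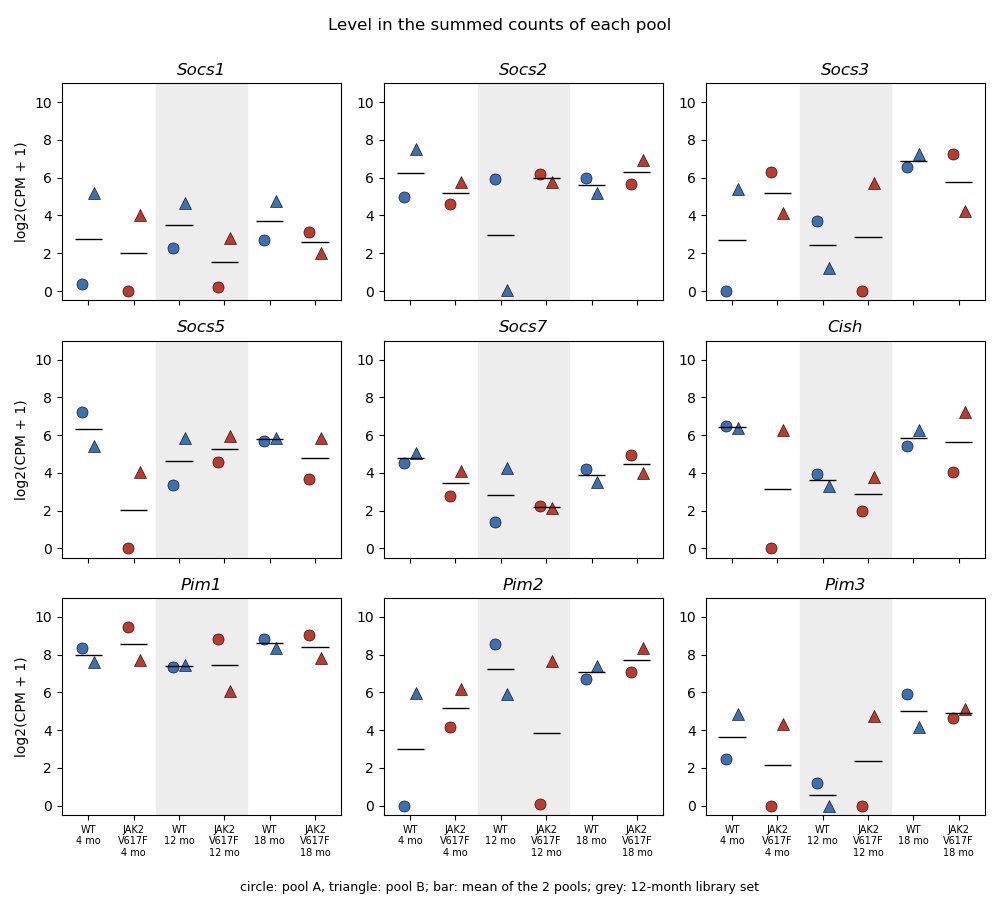
Each point is 1 library pool (circle pool A, triangle pool B), plotted as log2(CPM + 1) of the summed counts by genotype and age, with the mean of the 2 pools as a bar and the 12-month set in grey. Pim1 sits between 65.8 and 695 CPM in every pool, while the other 8 genes have pools at or close to 0 beside pools above 25 CPM.

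Genotype was compared first. With the 12 pools in a single fit (edgeR's quasi-likelihood test on summed counts, Benjamini-Hochberg adjustment over 14930 genes), 0 of 9 members passed an adjusted p of 0.05 between JAK2V617F and WT, averaged over the 3 ages. None passed at 4, 12 or 18 months either. The background was 0 of 14930 genes, or 0%, in each of these 4 contrasts, with unadjusted p under 0.05 for 634, 291, 687 and 143 genes. DESeq2 on the same sums called 522 genes (3.5%) over the 3 ages, 383 (2.57%) at 4 months, 897 (6.01%) at 12 months and 199 (1.33%) at 18 months, and 0 of 9 members in each. On simulated counts with these libraries, a genotype difference of 4-fold was called for 12 of 200 changed genes and 1 of 16-fold for 116 of 200, so that most changes of 4-fold, in genes drawn from all those tested, were missed.

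Among the suppressors, the fold changes went both ways and every interval held 0. The mean log2 difference, JAK2V617F against WT, was -1.69 ± 1.68 for Socs1, 0.33 ± 1.10 for Socs2, 0.93 ± 1.47 for Socs3, -1.20 ± 1.12 for Socs5, -0.57 ± 1.27 for Socs7 and -0.29 ± 1.15 for Cish (log2 ± SE over 12 pools, edgeR adjusted p = 1 for each). For the kinases it was 0.71 ± 0.544 for Pim1, 0.10 ± 1.23 for Pim2 and 1.13 ± 1.72 for Pim3, again with an edgeR adjusted p of 1. The members' median was 0.10 beside -0.09 over all genes tested. Pim1, the most evenly read of them, had the narrowest interval, from -0.46 to 1.87.

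Cish, whose protein binds STAT5 docking sites on receptors and which holds both motif copies printed above, showed no difference between genotypes that passed a test. Its level was 88.6 and 81.4 CPM in the WT pools of 4 months and 0 and 75.9 CPM in those of JAK2V617F. At 12 months it was 14.04 and 8.72 CPM against 2.97 and 12.9 CPM, and at 18 months 41.1 and 75.1 CPM against 15.5 and 150 CPM. Both JAK2V617F pools lay below both WT pools at 4 months, the genotypes overlapped at 12 and 18 months, and both extremes, 0 and 150 CPM, belong to JAK2V617F. The pool at 0 is that of 4 wells, whose 95% Wilson interval for the share of wells with a count runs from 0 to 48.99% (3 counts of 4 would be 75%), and in the pool at 150 CPM 1 cell gave 69.6% of the counts. By wells, 31 of 189 JAK2V617F cells of 4 and 18 months had at least 10 counts of Cish (16.4%), against 41 of 218 WT cells (18.8%).

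Pim1, a short-lived kinase that stands among the standard STAT5 targets, lay at 325 and 197 CPM in WT and at 695 and 211 CPM in JAK2V617F pools of 4 months. At 12 months the WT pools gave 164 and 176 CPM and those of JAK2V617F 447 and 65.8 CPM. At 18 months the values were 456 and 324 CPM against 524 and 224 CPM. JAK2V617F pools were thus the highest and the lowest at 12 and 18 months, and at no age did both lie above both WT pools. The log2 difference of 0.71 rested on few cells: without the 12-month pools and the 4-well pool it was -0.10 ± 0.379 (edgeR, interval -0.91 to 0.71), and without the 12-month pools alone 0.57 ± 0.523. The share of wells with at least 10 counts of Pim1 was lower in the JAK2V617F pool of all 4 matched pairs of 4 and 18 months (85.7 and 75%, 76.8 and 67.2%, 97.1 and 91.8%, 91.4 and 87.2%, WT first). The means over all 12 pools were 79.8% in WT and 74.8% in JAK2V617F (exact permutation within age over 12 pools, p = 0.546, adjusted p = 1, with 0.00926 as the smallest p that the arrangements can give).

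Socs1, which blocks JAK kinases directly and is best known as the brake on interferon signals, was read in a larger share of WT than of JAK2V617F cells. Its share of wells with at least 1 count averaged 18.5% in WT and 7.77% in JAK2V617F pools, and was lower in JAK2V617F in all 4 matched pairs of 4 and 18 months. By pool it was 4.76 and 31.7% in WT against 0 and 6.90% at 4 months, 15.6 and 20% against 11.6 and 16.3% at 12 months, and 11.8 and 27.2% against 4.08 and 7.69% at 18 months. The genotypes overlapped at 4 months and at 12 months and were apart at 18 months. Pair A of 4 months is 0 of 4 JAK2V617F wells against 1 of 21 WT wells, with 2 counts, and says little. At this minimum of 1 count, detections of Socs1 also followed shared indexes (18.2 against 13.8% at 4 and 18 months). Without the 4-well pool, the mean share at 10 counts over 4 and 18 months was 8.34% in WT and 3.36% in JAK2V617F. The exact permutation test gave p = 0.037 before and an adjusted p of 1 after correction over all genes, beside an unadjusted p under 0.05 for 2.69% of genes. At a minimum of 10 counts the means were 6.91 and 2.59% (exact permutation p = 0.102 over 12 pools, adjusted p = 1).

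The remaining members lay as follows. Socs5, a regulator of growth factor and cytokine receptors, had means of 60.9 ± 47 CPM in WT and 27.9 ± 24.9 CPM in JAK2V617F (SD, n = 6 pools each), and its highest pool, at 150 CPM, was a WT pool of 21 wells. Socs2, a STAT5 target that restrains growth hormone signals, had 62.4 ± 64.2 and 62.2 ± 32.3 CPM. Socs7 had 17.1 ± 10.4 and 12.3 ± 10.2 CPM. For Pim3, the kinase closest to Pim1, the means were 18.2 ± 22.5 and 17.3 ± 14.3 CPM. The differences of Socs2, Socs7 and Pim3 are smaller than the spread between the pools of either genotype. That of Socs5 is smaller than the SD of the WT pools and larger than that of the JAK2V617F pools, and did not pass (exact permutation p = 0.222 over 12 pools, adjusted p = 0.995).

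Pim2, a constitutively active kinase whose level is set largely by transcription, was higher in the JAK2V617F pool of all 4 matched pairs of 4 and 18 months, with means of 83.5 ± 71.1 CPM in WT and 138 ± 135 CPM in JAK2V617F (SD, n = 4 each), or 178 ± 133 CPM in JAK2V617F without the 4-well pool (n = 3). The 12-month pools did not share that order: WT gave 373 and 58.2 CPM, JAK2V617F 0.0683 and 198 CPM. Over 12 pools the means were 128 ± 133 and 125 ± 124 CPM. Pair A of 4 months is 34 counts in 1 of 4 JAK2V617F wells against 0 counts in WT. In pool B of 18-month JAK2V617F, 1 cell held 70.3% of the counts. By wells with at least 10 counts that pool was below its WT pair (24.4 against 32.1%), and 3 of 4 pairs were higher in JAK2V617F.

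No member separated the genotypes at every age. A gene was counted as separated when both JAK2V617F pools lay beyond both WT pools, in a single direction, within each age. By CPM 0 members met this, beside 0.121% of genes tested that were higher and 0.496% that were lower. By wells with at least 10 counts it was also 0 members, beside 0.248% higher and 0.147% lower, and by wells with at least 1 count 0 members, beside 0.174 and 0.355%. Erythroid markers leaned 1 way in the genotype contrast over the 3 ages, without passing the test. By taking the mean of the ages, the 6 erythroid genes on a list (among them Hbb-bs, Klf1 and Gata1) all had a log2 difference above 0 (median 2.08, 0 of 6 passing). Within an age, 4 of 6 were above 0 at 4 months (median 1.17), 6 at 12 months (4.22) and 3 at 18 months (0.70). Their summed level was 35.9 to 1216 CPM in WT and 57.5 to 5006 CPM in JAK2V617F pools, the highest values being those of 12 months, and Gata1 was at 0 in 10 of 12 pools and Klf1 in 7. Of 6 B cell markers 3 could be tested, and all 3 had a log2 difference above 0 (median 2.58, 0 of 3 passing). Their summed level was 29.7 to 132 CPM in WT and 0 to 142 CPM in JAK2V617F pools, the highest in pool B of 4 months. The part of these markers in the values of the 9 genes was not tested.

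**Figure D3:**
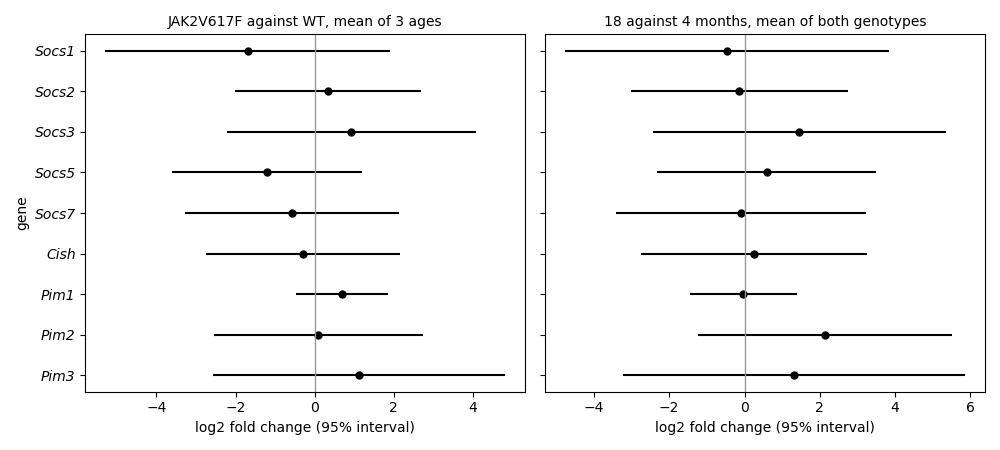
Points give the log2 fold change of each gene from edgeR on summed counts and lines its 95% interval, for JAK2V617F against WT over the 3 ages (left, 12 pools) and for 18 against 4 months over both genotypes (right, 8 pools compared, spread from 12). Every line crosses 0, and the narrowest is that of Pim1, from -0.46 to 1.87 on the left and from -1.45 to 1.39 on the right.

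Age was compared next, 18 against 4 months, within each genotype and as the mean of both. By edgeR 0 of 9 members passed in the mean, in WT or in JAK2V617F, and 0 of 9 in the age by genotype interaction. The background was 0% in each of these 4 contrasts, with 544, 160, 276 and 403 genes at an unadjusted p under 0.05. DESeq2 called 320 (2.14%), 238 (1.59%), 326 (2.18%) and 259 genes (1.73%) and no member in any. On simulated counts an age difference of 4-fold was called for 2 of 200 changed genes, and 1 of 16-fold for 86 of 200. The members' median log2 difference was 0.25 beside 0.29 over all genes tested. Of the cell type markers, 1 of 6 erythroid (median -0.95), 1 of 6 megakaryocyte (-0.54) and 0 of 3 B cell genes (-0.96) lay above 0 with age. So did 4 of 7 granulocyte and monocyte (0.50), 2 of 2 T and NK cell (3.05) and 1 of 2 macrophage and stroma genes (4.30), with 0 called. The part of these markers in the age values of the 9 genes was not tested.

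Pim2 was the only member whose pool levels kept the ages apart in both genotypes. Its level was 0 and 62.05 CPM in the WT pools of 4 months and 102.6 and 169 CPM in those of 18 months. In JAK2V617F it was 16.9 and 71.6 CPM at 4 months and 135 and 327 CPM at 18 months. Every 18-month pool thus lay above every 4-month pool of its genotype, and also above those of the other, with means of 37.6 ± 34.6 and 184 ± 99.3 CPM (SD, n = 4 each).

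The test of that difference did not pass. The exact permutation test within genotype gave p = 0.0556 over 8 pools, the smallest that 36 arrangements can give, and an adjusted p of 0.871. Higher levels in all 18-month pools within each genotype were found in 5.63% of genes tested and lower in 0.743%, so 1 of 9 members is near the background. The edgeR log2 difference was 2.14 ± 1.58, with an interval from -1.24 to 5.51 and an adjusted p of 1. In the highest pool (JAK2V617F, 18 months, B) 1 cell held 70.3% of the Pim2 counts, and it was the cell of 6817 counts among 33 with any. The share of wells with at least 10 counts was 0 and 13.4% in WT of 4 months, 25 and 20.7% in JAK2V617F of 4 months, 11.8 and 32.1% in WT of 18 months and 32.7 and 24.4% in JAK2V617F of 18 months. By this measure the ages overlap in both genotypes.

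For Pim1 the ages stood apart in the share of passing wells and overlapped in the summed level. At least 10 counts were found in 85.7 and 76.8% of WT and 75 and 67.2% of JAK2V617F wells of 4 months. At 18 months the shares were 97.1 and 91.4% in WT and 91.8 and 87.2% in JAK2V617F. All 4 pools of 18 months were above all 4 of 4 months, with means of 76.2 ± 7.59 and 91.9 ± 4.05% (SD, n = 4 each). The exact permutation test gave p = 0.0556 over 8 pools, again the smallest possible, and an adjusted p of 0.875. The 4-well pool's 75% has a 95% Wilson interval from 30.1 to 95.4%, which covers counting error only, as do all such intervals and limits here. Without that pool the mean at 4 months was 76.6 ± 9.24% (n = 3).

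Pim3 showed the same order at 10 counts, within each genotype: 9.52 and 9.76% in WT of 4 months against 11.8 and 9.88% at 18 months, and 0 and 12.1% in JAK2V617F of 4 months against 18.4 and 15.4% (exact permutation p = 0.0556 over 8 pools, adjusted p = 0.875). The 0% is 0 of 4 wells, and without that pool the order was the same, with a mean of 10.4 ± 1.41% at 4 months (n = 3) beside 13.8% at 18 months. The WT pools B, at 9.76 and 9.88%, are 8 of 82 and 8 of 81 wells, so their order rests on the number of wells that passed. Their 95% Wilson intervals run from 5.03 to 18.1% and from 5.09 to 18.3%. Thus 2 of 9 members were higher in all 18-month pools, beside 5.37% of genes tested, and 0 were lower, beside 0.985%. At a minimum of 5 counts 3 of 9 members were higher (Pim1, Pim2 and Pim3), beside 5.32% of genes, and 0 lower, beside 1.1%. At a minimum of 1 count 0 members were higher or lower, beside 5.12 and 1.19%.

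The number of genes read per cell moved the same way as these shares. Wells of 18 months held a mean of 2030 to 2254 genes with at least 10 counts by pool, and those of 4 months 1817 to 2057. When each well was thinned to 50000 counts and a gene was detected at 1 count, Pim1 was found in 95.2, 87.5, 100 and 86.2% of wells of 4 months and in 97.1, 95.1, 97.96 and 93.5% of wells of 18 months (WT pools A and B, then JAK2V617F), higher in 3 of 4 matched pairs. In thinned wells 0 members were higher or lower in all 18-month pools, beside 3.78 and 1.63% of genes tested. At this minimum of 1 count it was also 0 members without thinning, so the thinned values do not separate depth from the minimum. The part of depth in the shares at 10 counts was not tested. The thinning left out 2 wells of 4 months and 1 of 18 months.

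**Figure D4:**
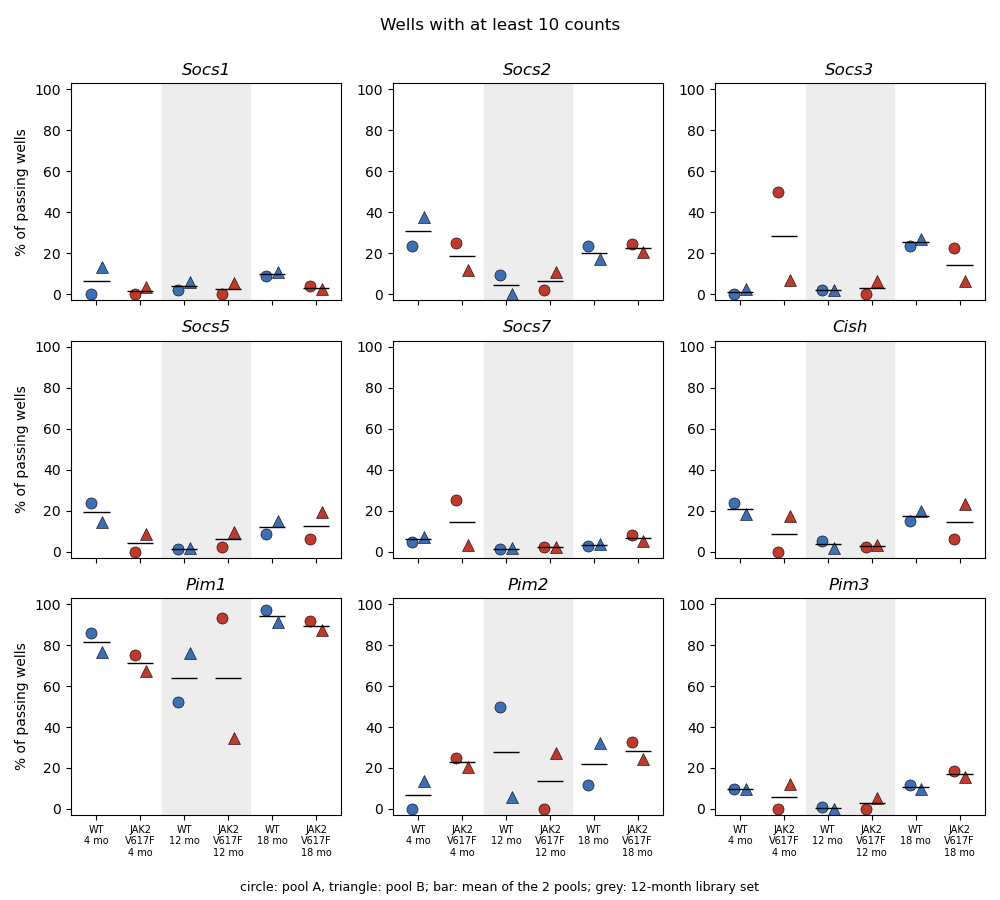
Each point is 1 library pool (circle pool A, triangle pool B) and gives the percentage of its passing wells with at least 10 counts of the gene, from 4 to 96 wells a pool, with the mean of the 2 pools as a bar and the 12-month set in grey. Pim1 is at 87.2 to 97.1% in all 4 pools of 18 months and at 67.2 to 85.7% in those of 4 months, and Socs3 is at 0 and 2.44% in WT of 4 months beside 23.5 and 27.2% in WT of 18 months.

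Socs3, the inhibitor of gp130 receptors and of JAK2 that is a classic STAT3 target and holds the single motif copy printed above, was read in a larger share of WT cells at 18 than at 4 months. Its level was 0 and 42.04 CPM in WT of 4 months and 94.2 and 151 CPM at 18 months, and wells with at least 10 counts made up 0 and 2.44% against 23.5 and 27.2%. In JAK2V617F it was 76.8 and 16.6 CPM at 4 months and 153 and 17.8 CPM at 18 months, with 50 and 6.90% of wells against 22.4 and 6.41%. The WT pools do not overlap and those of JAK2V617F do, and the 50% is 2 of 4 wells, with a 95% Wilson interval from 15 to 85%. The 0 of 21 wells in WT pool A allows a share of up to 14.3% (3 of 21 wells).

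Neither difference in Socs3 passed a test. The log2 difference was 1.46 ± 1.82 over both genotypes, 2.43 ± 2.66 in WT and 0.48 ± 2.53 in JAK2V617F, and the interaction was -1.95 ± 3.60 (edgeR, adjusted p = 1 for each). Without the 12-month pools and the 4-well pool the mean was 2.33 ± 1.25, with an interval from -0.34 to 5.01 and an edgeR adjusted p of 1. Pool CPM was higher at 18 months in 4 of 4 matched pairs (exact permutation p = 0.167 over 8 pools, adjusted p = 0.929). Socs3 is also among the marker genes that the study drew from these cells for a cluster of old HSCs, so its direction with age is not independent evidence.

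**Figure D5:**
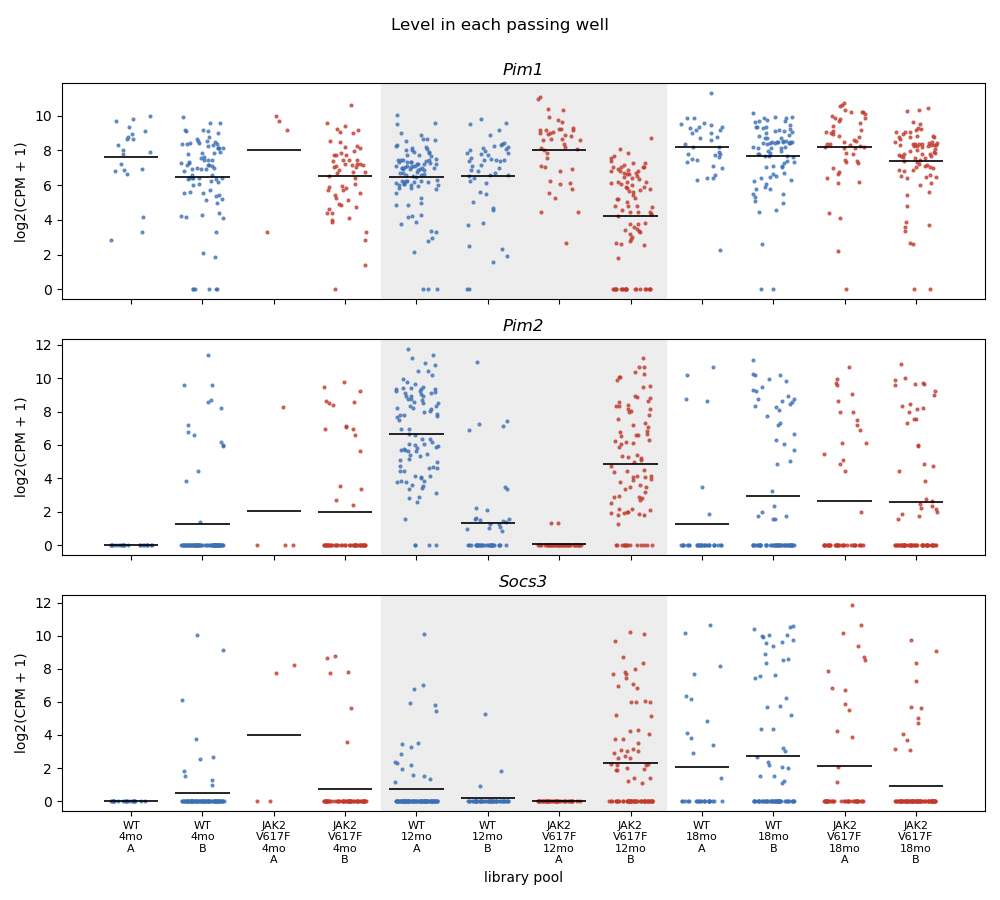
Each dot is 1 passing well, plotted as log2(CPM + 1) by library pool with the pool mean as a bar, WT in blue, JAK2V617F in red and the 12-month set in grey, for Pim1, Pim2 and Socs3. Pim1 is above 0 in 650 of 688 wells, whereas Pim2 and Socs3 are at 0 in most wells of 4 and 18 months and high in a minority.

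The other members, Pim3 included, gave no order by age in their summed levels. Over 4 pools each, the means at 4 and 18 months were 12.6 ± 16.5 and 10.6 ± 10.45 CPM for Socs1, 73.3 ± 75.6 and 66.8 ± 36.9 CPM for Socs2, 51.9 ± 67.5 and 43.7 ± 21.3 CPM for Socs5 and 19.1 ± 11.1 and 18.3 ± 8.24 CPM for Socs7. Cish had 61.5 ± 41.3 and 70.5 ± 58.5 CPM and Pim3 12.9 ± 12.9 and 33.6 ± 18.1 CPM. The edgeR log2 differences of these 6 genes ran from -0.46 ± 2.01 for Socs1 to 1.31 ± 2.12 for Pim3, each with an adjusted p of 1. For Socs1 the block for library sets turned the sign, to 2.05, so its direction with age is not settled by these pools.

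At 12 months the pools of a genotype differed widely for the kinases. Pim2 had at least 10 counts in 50 and 6% of WT wells and in 0 and 27.2% of JAK2V617F wells. Pim1 stood at 52.1 and 76% against 93.02 and 34.8%. Socs3 lay between 0 and 6.52% in these 4 pools. Both JAK2V617F pools were above both WT pools for Socs5 (2.33 and 9.78% against 1.04 and 2.00%) and for Socs7 (2.33 and 2.17% against 1.04 and 2.00%). That is 2 of 9 members higher and 0 lower, beside 8.58% of genes tested that were higher and 7.73% that were lower, and for Socs7 it rests on 5 wells in all. For Socs5, pool A of JAK2V617F and WT pools A and B had 1 such well each, of 43, 96 and 50. Their order thus rests on the number of wells that passed. The edgeR log2 differences of the 9 members at this age ran from -2.40 ± 2.99 for Socs1 to 4.31 ± 3.38 for Pim3, with adjusted p between 0.957 and 1.

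Other genes of the pathway, on lists chosen by function, did not pass the edgeR test either, in the mean genotype or the mean age contrast. For genotype, 2 of 11 JAK kinases and STATs had a log2 difference above 0 (median -0.53), as did 1 of 13 other negative regulators such as Ptpn6 and Sh2b3 (-0.19), 7 of 16 receptors (-0.41) and 8 of 14 other STAT3 and STAT5 targets (0.01), beside -0.09 over all genes. Taken by age, the other negative regulators were above 0 for 2 of 13 at 4 months, 7 at 12 and 8 at 18 (medians -1.15, 0.07 and 0.08). In the 4-well pool 7 of these 13 genes were at 0, and the lists were not fitted without it. For age the counts above 0 were 6 of 11 (median 0.33), 9 of 13 (0.36), 12 of 16 (0.53) and 11 of 14 (1.54), beside 0.29 over all genes. Jak2 itself had -0.53 ± 0.793 for genotype and -1.14 ± 0.981 for age (edgeR, adjusted p = 1 for both).

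Immediate early genes, such as Fos, Junb and Egr1, had the largest median with age of the signaling lists, and they share Fos, Junb and Myc with the other STAT targets above. All 17 of 17 tested had a log2 difference above 0, with a median of 2.06 and 0 of 17 called. Their summed level was 2462 to 4173 CPM in the pools of 4 months and 6932 to 14253 CPM in those of 18 months. Atf3 was at 0 in all 4 pools of 4 months and Egr2 in 3 of them. The study names jun/fos factors and Nr4a1 among the marker genes of its cluster of old HSCs, drawn from these cells. The direction of this list with age, and of the genes it shares with the other STAT targets, is thus not independent evidence. At 18 months, wells with at least 10 counts of Fos had as many of Socs3 more often than the other wells of their pool in 4 of 4 pools. The shares were 25.9 against 14.3% and 30.9 against 19.2% in WT pools A and B, and 29.4 against 6.67% and 9.62 against 0% in those of JAK2V617F. For Pim3 the share was higher in 3 of 4 pools and equal in the other. For Socs2, Socs5 and Socs7 it was higher in 3 and lower in 1. Cish and Pim1 were higher in 2 and lower in 2, and Socs1 and Pim2 higher in 1 and lower in 3. These are descriptions of wells of 4 pools, with no test, and the part of the immediate early genes in the age values of the 9 genes was not tested. The part of well depth in these shares was not tested either. How many of all genes tested were higher with Fos in 4 of 4 pools was not counted.

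Between themselves the members were loosely tied. Averaged within the pools of 4 and 18 months, Spearman's correlation over wells ran from -0.22 for Socs7 with Pim1 (8 pools) to 0.18 for Socs2 with Pim2 (7 pools), which in counts this sparse is no finding. A cell of 18 months held a mean of 2.03 to 2.27 members at 10 counts by pool and a cell of 4 months 1.52 to 2.00.

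The genes most like each member over wells were sought among 9616 genes, by the mean of the within-pool Spearman correlations over up to 12 pools. For Socs3 these were Vamp3 (0.25), the AP-1 subunit Junb (0.24) and Eps8 (0.23), in 10 pools. For Pim2 they were Dtnbp1 (0.26), Psme4 (0.24) and Nsun5 (0.24), in 11 pools, and for Socs2 Ifi27 (0.24), Tmem248 (0.23) and Nup98 (0.22), in 12. Pim3 had Dhrs1 (0.23), Hist1h2ae (0.20) and Exosc4 (0.19), Socs5 Adck2 (0.19), Esam (0.18) and Nupl1 (0.18), Cish Epsti1 (0.18), Mmp14 (0.18) and Nsun5 (0.17), and Pim1 Usp47 (0.18), Gm29216 (0.17) and Prdx5 (0.16). All of these are weak, and the wells of a pool share their library and depth. In the 8 pools of 4 and 18 months alone, Junb stayed among the 3 for Socs3 (0.28), Esam for Socs5 (0.23) and Usp47 for Pim1 (0.26). Those pools are part of the 12, so this is not an independent repeat.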

How the data were processed

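Single-cell Smart-seq2 libraries were aligned by the authors with TopHat2 (2.0.13) and Bowtie2 (2.2.3) to GRCm38 (Ensembl 77), and the deposited files hold raw counts per gene from HTSeq, 1 file per well. The strand setting and the handling of reads shared by overlapping genes are not given in the sources used here. The 92 spike-in and 5 unassigned categories were left out of library sizes. Gene names came from GENCODE M21 (40340 of 41388 identifiers matched). Wells were kept with at least 2500 genes detected, and their counts were summed per pool. CPM is 1000000 times a gene's counts over all gene counts of a pool or well.

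Sums were tested with edgeR 4.0.16 (quasi-likelihood F-test, TMM, filterByExpr, 6 group means over 12 pools, Benjamini-Hochberg adjustment over 14930 genes) in R 4.3.3. The SE is the absolute log2 fold change divided by the square root of F, and the 95% interval uses the matching quantile of the t distribution. Shares of wells and pool CPM were tested, two-sided, by exact permutation over pools within age or within genotype. Labels were exchanged across library sets, so these tests do not keep the matched pairs. With 2 pools a group, p-values measure the spread between pools. DESeq2 1.42.0 and limma 3.58.1 gave alternatives. The edgeR step was tested on simulated data with 200 changed genes. Genes named beside the members and Jak2 are the 3 most correlated with each member found in at least 20% of wells. Members and lists were chosen with earlier results of these data known. Alternatives were another normalization, filter, well minimum, detection minimum (5 counts), thinning, a library set block, wells weighted equally, fewer pools and each pool left out. The minimum of 10 counts, the fits without the 12-month pools and the values without the 4-well pool were chosen after seeing the data. Some items of the pathway are not reported here.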

Additional observations from a re-analysis of the deposited data

Results flagged for a closer look

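The share of wells with at least 10 counts of Socs3 differed between genotypes in opposite directions at 4 and 18 months. It was higher in both JAK2V617F pools than in both WT pools at 4 months, by 27.2 percentage points between the means, and lower at 18 months, by -10.9 percentage points. The difference between the ages was not tested on this measure, and the 4-month value rests on 2 of 4 wells in pool A of JAK2V617F. Without that pool it was 5.68 percentage points. On summed counts, the age by genotype interaction of Socs3 was -1.95 ± 3.60 (log2 ± SE, edgeR, adjusted p = 1).

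Socs5 had the opposite order at 4 and 12 months, with a JAK2V617F share -14.9 percentage points from that of WT at 4 months and 4.53 percentage points above it at 12 months. The 4-month value was -10.6 percentage points without the 4-well pool. At 12 months, pool A of JAK2V617F and both WT pools had 1 well each at 10 counts, so that order rests on the wells that passed. This difference was not tested, and the libraries of the 12-month pools stood apart from the others.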

How the results depend on the processing

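No member was called at an adjusted p of 0.05 under any alternative run. Of 90 other fits of the members' log2 fold changes each, 79 kept the sign for genotype and 81 for age. For genotype, the alternative that keeps only the pools compared holds all 12 pools and so repeats the main fit. With the fits that leave out 1 pool included, 0 of 9 members kept the sign throughout for genotype and 3 of 9 for age. The labels number no replicates across groups, but each 4-month and 18-month group has 1 pool in each of 2 library sets. The paired fit, with a block for these sets, called no gene, and in it the age differences (log2) of Socs1, Socs2 and Pim1 turned to 2.05, 0.12 and 0.047.

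Counts of genes called did depend on the processing. In the order genotype over 3 ages, at 4, 12 and 18 months, then age over both genotypes, in WT, in JAK2V617F and the interaction, they were 16, 9, 3, 1, 12, 3, 6 and 4 with no filter on low counts and 522, 383, 897, 199, 320, 238, 326 and 259 by DESeq2. For age over both genotypes, all wells gave 1 gene and limma 3. Without the 12-month pools and the 4-well pool, the 3 age contrasts gave 13, 4 and 6. Leaving out 1 pool gave 1 to 64, 1 to 511, 0 to 21, 0 to 1, 3 to 222, 0 to 3, 0 to 474 and 0 to 181. The values 64, 511, 222, 474 and 181 came without pool B of 4-month JAK2V617F, where the 4-well pool stands alone and is assumed to vary like the other groups.

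Genotype differences (log2) changed sign as follows. Without the 12-month pools Socs2 was -0.20 and Pim3 -0.45. Without these and the 4-well pool Socs2 was -0.0065, Socs3 -0.42, Socs7 0.015, Cish 0.31 and Pim1 -0.10. Socs5 was 0.14 with wells of at least 1300 genes and 0.10 with all wells, and limma gave 0.026 for Socs7 and -0.091 for Pim1. Age differences turned for Socs5 to -0.75 (1300 genes) and -0.69 (all wells), for Cish to -0.21 and for Pim1 to 0.65 (without the 12-month pools and the 4-well pool), and by limma for Socs1 to 0.12 and for Pim1 to 0.69.

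Genotype differences in the share of wells (percentage points) turned for Socs2 to -1.01 at 5 counts, -2.76 at 10 and -4.61 when thinned, for Socs7 to 3.41 at 5 and 4.08 at 10, for Socs5 to 2.57 (1300 genes) and 1.45 (thinned), and at 1300 genes for Pim1 to 0.29 and for Pim2 to -0.48. Age differences turned for Socs5 to -1.36 (1300 genes) and for Socs7 to 1.28 (thinned). Leaving out 1 pool changed the sign of these differences in at least 1 fit. For the genotype log2 difference the values ran from -5.19 to 0.35 for Socs1, -0.066 to 3.56 for Socs2, -3.12 to 4.85 for Socs3, -0.87 to 0.35 for Socs7, -4.57 to 0.022 for Cish, -0.19 to 0.99 for Pim1, -3.17 to 4.21 for Pim2 and -2.59 to 3.41 for Pim3. For age they ran from -1.24 to 4.79 for Socs1, -0.53 to 0.85 for Socs2, -0.15 to 5.88 for Socs5, -0.33 to 0.26 for Socs7, -0.95 to 6.66 for Cish and -0.37 to 0.65 for Pim1. For shares of wells with at least 1 count, genotype gave -1.52 to 14.8 for Socs3, -13.7 to 3.09 for Socs5, -5.93 to 0.68 for Socs7, -5.84 to 1.76 for Pim1 and -12.2 to 14.5 for Pim2, and age -4.90 to 8.57 for Socs1, -13.6 to 0.19 for Socs2, -0.90 to 5.99 for Socs5, -0.0097 to 12.5 for Cish and -1.34 to 2.32 for Pim1. The mean log2(CPM + 10) of Pim1 differed by 0.0021 between genotypes, against a negative value with a pseudocount of 1. The causes were not tested.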

Other observations

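Wells below the minimum of 2500 genes were set aside above, and most members were read in a smaller share of them. Socs7 at 18 months was the exception, with at least 10 counts in 8 of 142 (5.63%) against 12 of 242 passing wells (4.96%). Pim1 had at least 10 counts in 163 of 219 such wells of 4 months (74.4%), close to the 123 of 165 of passing wells (74.5%), and in 107 of 142 of 18 months (75.4%) against 220 of 242 (90.9%). For Socs3 the shares were 4.11 against 4.85% at 4 months and 9.15 against 19.01% at 18 months. Pim2 stood at 5.02 against 14.5% and at 11.3 against 26.9%. The median count was 242293 in wells set aside and 301818 in passing wells of 4 months, and 251190 and 352244 at 18 months. At both ages most wells set aside came from pools A and most passing wells from pools B, which differ in library set. Passing wells of 4 months numbered 21 (WT) and 4 (JAK2V617F) in pools A, and 82 and 58 in pools B. At 18 months they were 34 and 49, and 81 and 78. The comparison thus mixes passing with library set, and the part of each was not tested. At 12 months the wells set aside were nearly empty, with a median of 4783 counts, and 7 of the 9 members had no such well at 10 counts.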
